A study of Homo sapiens with 8 samples.

Results

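The genes described here encode the proteins of the nuclear pore complex and the receptors that carry cargo through it. A symbol was included when it began with NUP and a digit, when it was KPNA, KPNB, IPO or XPO followed only by digits, or when it was 1 of 12 symbols named singly: XPOT, TPR, RANBP2, POM121, NDC1, RAE1, SEH1L, AAAS, CSE1L, TNPO1, TNPO2 and TNPO3. The rule used no measured value and found 53 of the 22808 gene symbols in the count table. Of these, 28 encode pore proteins or relatives of them and 24 encode transport receptors. The last is NUP50-AS1, an antisense transcript that matches the rule by its letters alone.

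Polyadenylated RNA was sequenced from RD18, a human cell line of fusion-negative rhabdomyosarcoma, a soft-tissue tumour with features of immature skeletal muscle. One group of 4 libraries came from cells transfected with miR-449a and miR-340-5p together, called here the microRNA pair. The other group of 4 libraries came from cells given lipofectamine, the transfection reagent, as vehicle, and no control RNA is named for it. Both groups were taken at 60 h. All 8 libraries come from this 1 line, and neither microRNA was given alone, so an effect of 1 of them cannot be told apart from an effect of the other or of transfected RNA as such. Whether the 4 libraries of a group are separate cultures is in no label, and a p-value here therefore refers to the spread among these libraries alone, part of which may be technical.

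The nuclear pore complex is a ring-shaped channel through the nuclear envelope, built from many different nucleoporins in several copies each. Large cargo crosses it bound to receptors of the karyopherin family: importins load cargo in the cytoplasm and exportins load it in the nucleus, and the small GTPase Ran, bound to GTP in the nucleus, releases the first and stabilises the second. New pores are assembled as the nuclear envelope reforms after mitosis and are inserted into the growing nucleus in interphase.

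MicroRNAs are known to act mainly through short matches in the 3′ untranslated regions (UTRs) of messenger RNAs, so the transfected ones are shown first, with their seed (bases 2 to 8) in capitals. The sequences are from RefSeq on GRCh38.p14, and the 2 seeds differ.
hsa-miR-449a: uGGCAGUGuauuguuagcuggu
hsa-miR-340-5p: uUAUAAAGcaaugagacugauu
The word searched for miR-449a was CACTGCC, the reverse complement of its seed, and likewise CTTTATA was searched for miR-340-5p. Each word was searched on the transcript strand only, in the longest 3′ UTR that GENCODE 29 gives the gene on GRCh38. The windows below show the word in capitals within the 3′ UTR of the 2 members that fell most, NDC1 and NUP210, of SEH1L, another member that fell more than 2-fold, and of the 2 members with the largest rises, XPOT and KPNA5.
NDC1, first match: ataggaagatCTTTATAgccagaaaca
NDC1, second match: tgtattatatCTTTATAattgaatatt
NUP210, first match: aggccagcttCACTGCCgtctcttcac
NUP210, second match: gtatctgcgcCACTGCCgcaagggaag
SEH1L: gcgatgctgaCACTGCCaacctccagt
XPOT: aagtcaagtcCTTTATAaagaccatag
KPNA5, first match: aaaaagattaCTTTATAaaatgtttaa
KPNA5, second match: ttacctttgcCTTTATAttttttcttc
On GRCh38 the words lie at chr1:53767002-53767008 and chr1:53766663-53766669 (minus strand) for NDC1, at chr3:13317548-13317554 and chr3:13317137-13317143 (minus strand) for NUP210, at chr18:12986973-12986979 (plus strand) for SEH1L, at chr12:64448424-64448430 (plus strand) for XPOT, and at chr6:116733010-116733016 and chr6:116735284-116735290 (plus strand) for KPNA5. The SEH1L 3′ UTR searched has 2284 bases, more than the 1846 bases of its whole transcript with the longest coding sequence. It therefore belongs to another transcript of the gene. A match describes the letters and is not by itself a working site. Only members that hold a word can be shown in this way. Other members that fell more than 2-fold, such as KPNA2 and KPNB1, hold neither word.

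Library totals ran from 2567737 to 5569342 counts, and 12366 genes passed the filter on low counts. Levels are given as CPM, read counts scaled to a common library size after TMM normalisation, and a mean is given ± SD over the 4 libraries of a group. A gene was called at a Benjamini-Hochberg adjusted p under 0.05 over all tested genes in edgeR's quasi-likelihood test. The comparison was broad: 33.4% of all tested genes were called higher and 34.0% lower with the microRNA pair. All 5 rhabdomyosarcoma markers were detected and all 5 fell, with summed levels of 796 to 828 CPM in the microRNA pair libraries against 1198 to 1232 CPM in the vehicle libraries; MYOG, the myogenic factor of differentiating muscle, was at 0.646 CPM with the microRNA pair and 10.4 CPM with vehicle. Summed markers of leukocytes, endothelium and epithelium stayed under 3 CPM in every library, and those of fibroblasts were at 156 to 184 CPM with the microRNA pair and 102 to 115 CPM with vehicle. Nearly all of the last was COL1A1, a collagen gene, with LUM at 0.300 CPM with the microRNA pair and 7.55 CPM with vehicle. All 10 proliferation markers fell (summed 147 to 246 CPM with the microRNA pair, against 3063 to 3372 CPM with vehicle) and all 10 interferon-response markers rose (summed 3566 to 3925 CPM with the microRNA pair, against 438 to 448 CPM with vehicle). Their part in the results on pore and receptor genes was not tested. In bulk RNA, fewer cells with a gene on and less of its RNA per cell cannot be told apart.

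Pore and receptor genes were mostly lower with the microRNA pair. Of the 53 symbols, 51 passed the filter; 38 of these fell (74.5%, against 34.0% of all tested genes) and 7 rose (13.7%, against 33.4%), and 6 were not called. Counting calls of at least 2-fold, 16 fell and 1 rose, where 13.1% of all tested genes fell and 12.5% rose by that much. The levels of the 2 groups did not overlap in 34 genes that were lower and 5 that were higher, against 29.7% and 29.2% of all tested genes. The median log2 fold change of the 51 was -0.73, while that of all tested genes was -0.00067. Their summed level was 4421 to 4653 CPM in the microRNA pair libraries and 6192 to 6693 CPM in the vehicle libraries. The symbols under the filter were NUP62CL, a relative of NUP62, with 1 read over the 4 microRNA pair libraries and 11 over the 4 vehicle libraries, and NUP50-AS1, at 1.22 CPM with the microRNA pair and 1.15 CPM with vehicle.

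**Figure D1:**
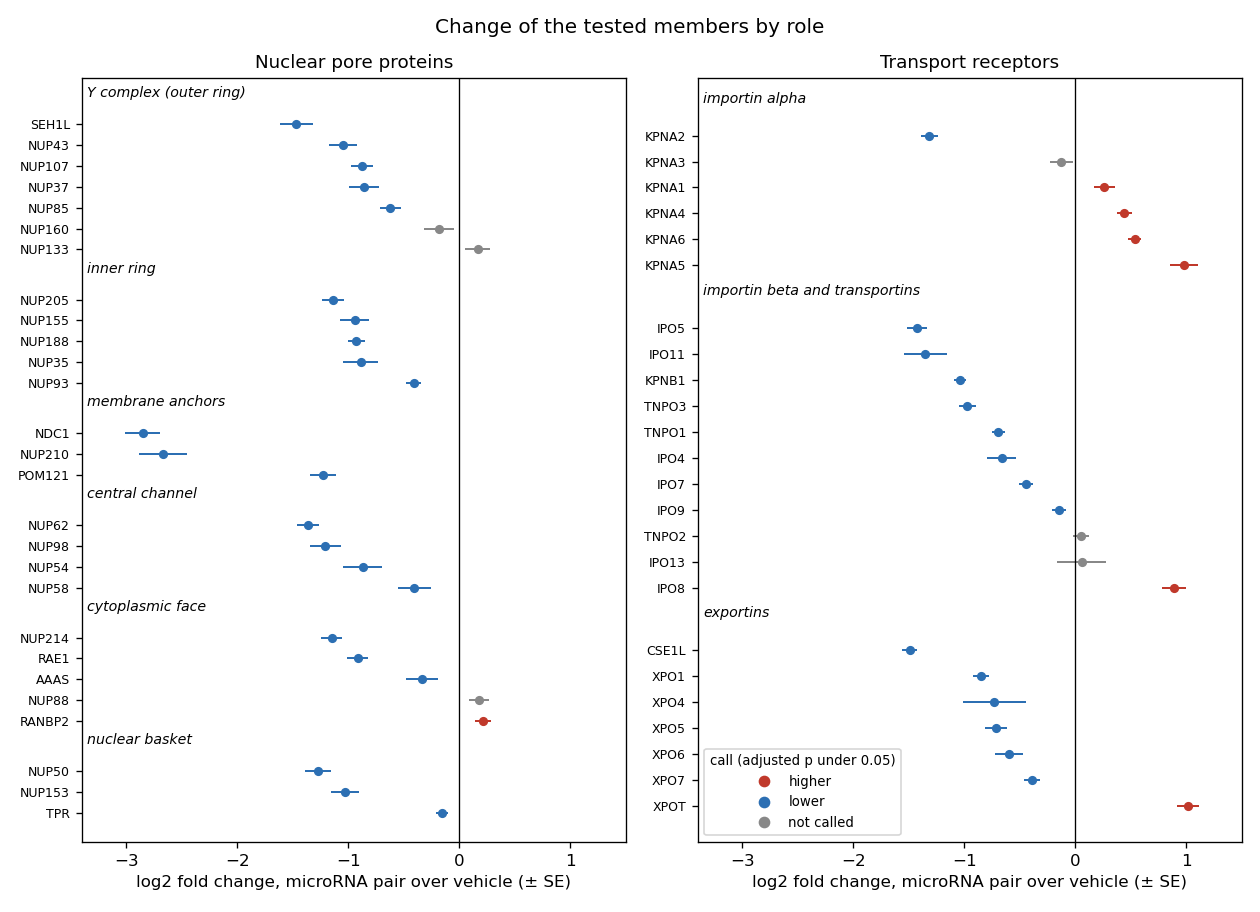
Log2 fold change (x axis, microRNA pair over vehicle, with its SE) of the 51 tested genes by role, pore proteins on the left and receptors on the right; colours give the edgeR call. The membrane anchors NDC1 and NUP210 lie farthest to the left, at -2.85 and -2.67, and the importin alpha genes are the 1 class with more rises than falls.

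Pore proteins fell in every structural layer. Of 27 tested, 23 fell (85.2%, against 34.0% of all tested genes), 1 rose (3.7%, against 33.4%) and 3 were not called, with a median log2 fold change of -0.92. Falls were largest among the membrane anchors, which hold the pore in the nuclear envelope: all 3 fell, by 2.35-fold to 7.22-fold.

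NDC1 (chr1:53765460-53838860, minus strand), a transmembrane nucleoporin needed for pore assembly, was at 5.15, 7.51, 7.23 and 9.98 CPM in the microRNA pair libraries, against 59.0, 49.2, 49.0 and 53.0 CPM in the vehicle libraries. All 4 microRNA pair libraries lay far below the lowest vehicle library. The fall was 7.22-fold (log2 fold change -2.85, SE 0.15, adjusted p = 2.17e-24), the largest among the 51 tested. NUP210 (chr3:13316235-13420309, minus strand), the transmembrane nucleoporin also called gp210, which in mouse is known for a role in muscle differentiation, was at 3.02, 3.24, 3.44 and 3.86 CPM with the microRNA pair, against 20.9, 22.5, 22.7 and 19.1 CPM with vehicle. All 4 microRNA pair libraries stood far below all 4 vehicle libraries, and the fall was 6.37-fold (log2 fold change -2.67, SE 0.22, adjusted p = 1.00e-16). NUP210 rests on 58 reads over the 4 microRNA pair libraries and 314 over the 4 vehicle libraries. POM121, the third anchor, which carries channel-type repeats, had 24.3, 23.5, 27.5 and 22.9 CPM with the microRNA pair, against 66.9, 61.1, 50.1 and 53.8 CPM with vehicle. The groups did not overlap, and the fall was 2.35-fold (log2 fold change -1.23, SE 0.12, adjusted p = 3.87e-14). POM121 shares most of its sequence with POM121C and POM121B, and reads of the 3 genes could be split between them in counting. Summed, they were at 48.1 ± 2.81 CPM in the microRNA pair libraries and 108 ± 8.33 CPM in the vehicle libraries (SD, n = 4 each), a log2 ratio of -1.16.

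The Y complex, the scaffold of the outer rings, had 5 members that fell and 2 that were not called among 7 tested. SEH1L, a small scaffold subunit that also serves the nutrient-sensing GATOR complex, fell most of these, with 15.3, 15.01, 10.7 and 12.2 CPM in the microRNA pair libraries and 43.9, 32.1, 34.4 and 42.7 CPM in the vehicle libraries. The ranges were well apart, and the fall was 2.76-fold (log2 fold change -1.47, SE 0.15, adjusted p = 2.41e-13). NUP43, another peripheral subunit, was at 19.3, 20.3, 21.7 and 18.7 CPM with the microRNA pair, against 43.1, 35.7, 45.1 and 41.2 CPM with vehicle and fell 2.07-fold (adjusted p = 1.65e-10), also without overlap. NUP107, a core scaffold subunit, averaged 43.9 ± 6.11 CPM in microRNA pair libraries and 82.2 ± 3.75 CPM in vehicle libraries, a log2 fold change of -0.87 (adjusted p = 1.01e-11). NUP37 and NUP85 fell by log2 fold changes of -0.86 and -0.62, and neither overlapped between groups; microRNA pair library 3 was the lowest in NUP37. The long scaffold subunits NUP160 and NUP133 were not called: NUP160 averaged 23.3 ± 2.78 CPM in microRNA pair libraries and 26.5 ± 2.30 CPM in vehicle libraries (95% interval of the log2 fold change -0.45 to 0.08), and NUP133 averaged 41.2 ± 2.15 CPM in microRNA pair libraries and 36.5 ± 3.32 CPM in vehicle libraries (-0.05 to 0.39). NUP133 had the largest positive estimate of the complex, 0.17, and overlapped between groups; with library size as the only scaling it was called higher (adjusted p = 0.0183).

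All 5 inner ring genes, which encode the scaffold around the channel, fell, and their groups did not overlap. NUP205, one of the largest scaffold proteins, had 41.5, 33.8, 30.6 and 37.3 CPM in the microRNA pair libraries and 84.1, 75.6, 72.8 and 86.9 CPM in the vehicle libraries. Every vehicle library was above every microRNA pair library, and the fall was 2.20-fold (log2 fold change -1.14, SE 0.10, adjusted p = 5.74e-15). Its relative NUP188 averaged 75.5 ± 5.07 CPM in microRNA pair libraries and 143 ± 9.20 CPM in vehicle libraries, a log2 fold change of -0.93 (adjusted p = 7.99e-16). NUP155, which links the ring to the membrane, fell by 0.94 on the log2 scale, and NUP35, a partner of NUP155, by 0.89. NUP93, the hub that recruits the channel proteins, changed least of the class, with 119 ± 6.43 CPM in microRNA pair libraries and 159.9 ± 9.30 CPM in vehicle libraries (SD, n = 4 each; log2 fold change -0.41, adjusted p = 1.07e-06).

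Nucleoporins of the central channel carry the phenylalanine-glycine repeats through which receptors pass, and the 4 tested fell. NUP62, the core of the channel trimer, was at 36.6, 39.7, 39.6 and 31.9 CPM with the microRNA pair and 97.5, 86.0, 101 and 98.2 CPM with vehicle. The lowest vehicle library had more than 2 times the level of the highest microRNA pair library, and the fall was 2.57-fold (log2 fold change -1.36, SE 0.10, adjusted p = 3.61e-19). Of NUP62's annotated exon bases, 10.4% overlap ATF5 on the opposite strand, and whether the counting used strand is not given in the sources used here. On the same strand, 6.4% of them overlap AC011452.1 and 5.6% overlap IL4I1. Other members have opposite-strand overlaps too, among them POM121 (18.8%, NSUN5P2), KPNA1 (16.3%, AC083798.2) and NUP88 (9.8%, RPAIN, and 8.8%, RABEP1). NUP98, whose gene also encodes the Y complex subunit NUP96 through a shared precursor, had 24.1, 14.3, 25.5 and 15.1 CPM with the microRNA pair, against 45.2, 44.3, 49.4 and 41.7 CPM with vehicle. Its microRNA pair libraries fell into a higher and a lower pair of values, all below the vehicle libraries, and the fall was 2.31-fold (log2 fold change -1.21, SE 0.14, adjusted p = 6.85e-11). NUP62's partners in the trimer are NUP54 and NUP58. NUP54 averaged 11.5 ± 3.52 CPM in microRNA pair libraries and 21.5 ± 0.958 CPM in vehicle libraries, a log2 fold change of -0.87 without overlap (adjusted p = 1.63e-05). NUP58 fell by a log2 fold change of -0.40 with overlapping groups (adjusted p = 0.0126). The call was lost without microRNA pair library 1 (adjusted p = 0.0547) and without vehicle library 3 (0.105), with DESeq2 (0.0712) and with library size alone (0.109).

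On the cytoplasmic face, where messenger ribonucleoproteins are released, 3 of 5 tested genes fell. NUP214, a filament protein that binds XPO1, was at 46.0, 46.2, 45.4 and 39.9 CPM in the microRNA pair libraries, against 113, 94.8, 93.4 and 98.5 CPM in the vehicle libraries. The groups were far apart, and the fall was 2.22-fold (log2 fold change -1.15, SE 0.09, adjusted p = 7.25e-17). RAE1, the mRNA export factor that binds NUP98, averaged 48.9 ± 2.84 CPM in microRNA pair libraries and 92.2 ± 7.86 CPM in vehicle libraries, a log2 fold change of -0.92 (adjusted p = 3.78e-13). AAAS, which encodes ALADIN, a protein anchored through NDC1, was called lower with overlapping groups (log2 fold change -0.34, adjusted p = 0.0407). The AAAS call was lost without microRNA pair library 1, 2 or 4 (adjusted p = 0.0567, 0.0682 and 0.131) and without vehicle library 2 or 3 (0.0733 and 0.367). It was also lost with DESeq2 (0.163), library size alone (0.236), upper-quartile scaling (0.0827) and no filter on low counts (0.0629). NUP88, the partner of NUP214, was not called, at 82.3 ± 5.23 CPM in microRNA pair libraries and 71.8 ± 7.69 CPM in vehicle libraries (95% interval 0.00 to 0.36), but was called higher without vehicle library 3 (adjusted p = 0.0264). RANBP2, the giant filament protein with SUMO ligase activity, was the 1 pore protein that rose, with 172, 175, 192 and 209.5 CPM with the microRNA pair, against 177, 149.9, 164 and 153 CPM with vehicle. Its groups overlapped, with vehicle library 1 above both of the lower microRNA pair libraries, and the difference was 1.16-fold (log2 fold change 0.21, SE 0.07, adjusted p = 0.00645). RANBP2 has near-identical RGPD copies; with 7 of these added, the level was 217 ± 15.6 CPM in microRNA pair libraries and 176 ± 12.1 CPM in vehicle libraries.

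The nuclear basket faces the nucleoplasm, and its 3 genes were called lower. NUP50, a mobile nucleoporin that helps release importin alpha cargo, had 24.5, 23.0, 32.0 and 38.6 CPM with the microRNA pair, against 75.7, 71.7, 59.5 and 69.8 CPM with vehicle, with no overlap and a 2.41-fold fall (log2 fold change -1.27, SE 0.12, adjusted p = 1.59e-13). NUP153, which attaches the basket, was at 25.4, 21.8, 18.2 and 21.6 CPM in the microRNA pair libraries, against 44.8, 39.4, 54.3 and 41.7 CPM in the vehicle libraries, a 2.04-fold fall (log2 fold change -1.03, adjusted p = 2.91e-10) without overlap. TPR, the coiled-coil protein that forms the basket's filaments, was by far the most counted pore gene, at 586, 545, 546 and 533 CPM with the microRNA pair, against 661, 564, 627 and 609.7 CPM with vehicle. The ranges overlapped, and the difference was small (log2 fold change -0.15, SE 0.05, adjusted p = 0.0119). TPR's call was lost without vehicle library 1 (adjusted p = 0.0619), with upper-quartile scaling (0.0855) and with library size alone (0.827).

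**Figure D2:**
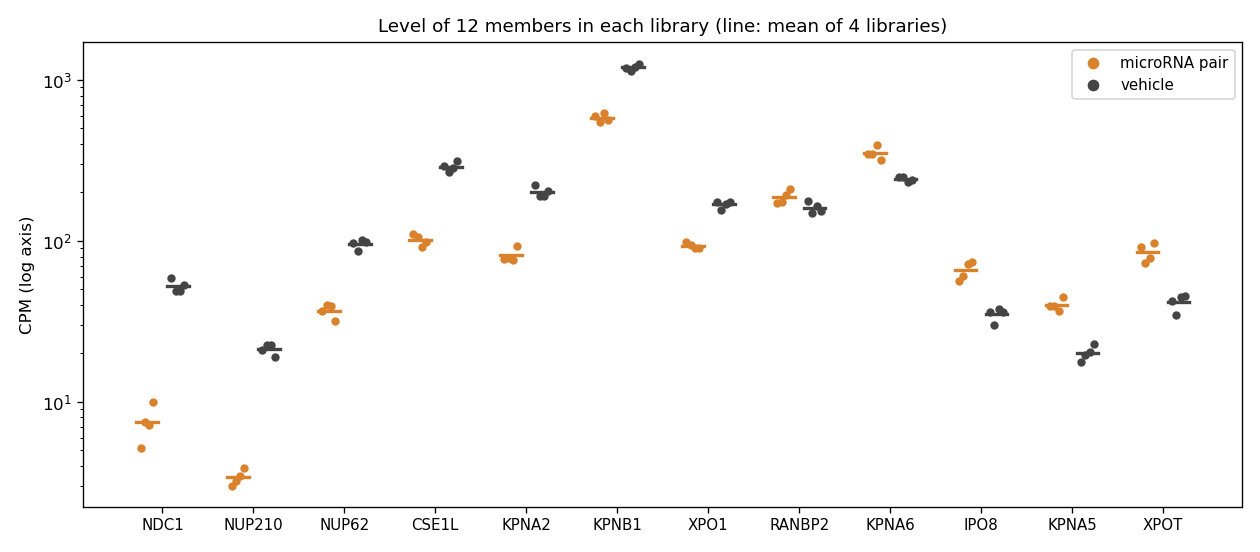
CPM (y axis, log scale) of 12 genes in each library, with the 4 microRNA pair libraries to the left of the 4 vehicle libraries for each gene and a line at each group's mean. From NDC1 to XPO1 all vehicle points lie above all microRNA pair points; RANBP2 overlaps; in KPNA6, IPO8, KPNA5 and XPOT all microRNA pair points lie above the vehicle points.

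Transport receptors moved in both directions. Of the 24 tested, 15 fell, 6 rose and 3 were not called, with a median log2 fold change of -0.52. Falls thus made up 62.5%, against 34.0% of all tested genes, and rises 25.0%, against 33.4%. KPNA2, KPNB1 and CSE1L, whose products work together in classical import, fell by more than 2-fold each, while KPNA1, KPNA4, KPNA5, KPNA6, IPO8 and XPOT rose.

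Importin alpha proteins are the adaptors that read classical nuclear localisation signals and hand cargo to importin beta. Of the 6 genes, 4 rose, 1 fell and 1 was not called, with a median log2 fold change of 0.35. KPNA2 (chr17:68035519-68046842) was the gene that fell, with 77.4, 78.5, 76.4 and 92.7 CPM in the microRNA pair libraries and 224, 190.3, 191 and 203 CPM in the vehicle libraries. MicroRNA pair library 4 was the highest of its group, yet every vehicle library was more than 2 times as high as it. The fall was 2.49-fold (log2 fold change -1.31, SE 0.08, adjusted p = 3.84e-23). KPNA5 showed the largest rise of the class, at 39.6, 39.6, 36.5 and 44.7 CPM with the microRNA pair, against 17.6, 19.7, 20.4 and 22.9 CPM with vehicle. No library overlapped, and the rise was 1.97-fold (log2 fold change 0.98, SE 0.13, adjusted p = 1.50e-09). KPNA6, a close relative of KPNA5 and KPNA1, averaged 352 ± 32.4 CPM in microRNA pair libraries and 243 ± 7.55 CPM in vehicle libraries (SD, n = 4 each), a log2 fold change of 0.53 (adjusted p = 2.37e-11). KPNA4, which belongs with KPNA3 to another subfamily, averaged 216 ± 15.4 CPM in microRNA pair libraries and 158 ± 11.9 CPM in vehicle libraries, a log2 fold change of 0.44 (adjusted p = 8.58e-08), and did not overlap between groups. KPNA1 rose by 0.26 on the log2 scale with overlapping groups (adjusted p = 0.0144), and KPNA3 was not called (log2 fold change -0.13, 95% interval -0.33 to 0.08).

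The make-up of the importin alpha pool was compared per length, as CPM per kb of transcript. The length was that of the annotated transcript with the longest coding sequence. The summed level of the 6 genes was 130.0 ± 5.07 CPM per kb in microRNA pair libraries and 156 ± 5.99 CPM per kb in vehicle libraries (SD, n = 4 each). The direction of the sum depended on the division by length. Without it, the sum was 774 to 868 CPM with the microRNA pair and 708 to 751 CPM with vehicle. KPNA2 made up 25.5 ± 2.82% of the sum per kb with the microRNA pair and 52.8 ± 2.37% with vehicle. KPNA6 made up 36.7 ± 2.34% with the microRNA pair and 21.2 ± 1.01% with vehicle, and KPNA4 made up 18.5 ± 0.799% with the microRNA pair and 11.3 ± 0.825% with vehicle. The first place therefore belonged to KPNA6 in all 4 microRNA pair libraries and to KPNA2 in all 4 vehicle libraries. KPNA5 took 2.73 ± 0.298% with the microRNA pair and 1.15 ± 0.142% with vehicle, the smallest share in both groups. Shares of reads without division by length put KPNA6 first in both groups, at 43.5% with the microRNA pair and 33.0% with vehicle, and KPNA2 at 10.1% with the microRNA pair and 27.4% with vehicle; the KPNA1 share then overlapped between groups.

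**Figure D3:**
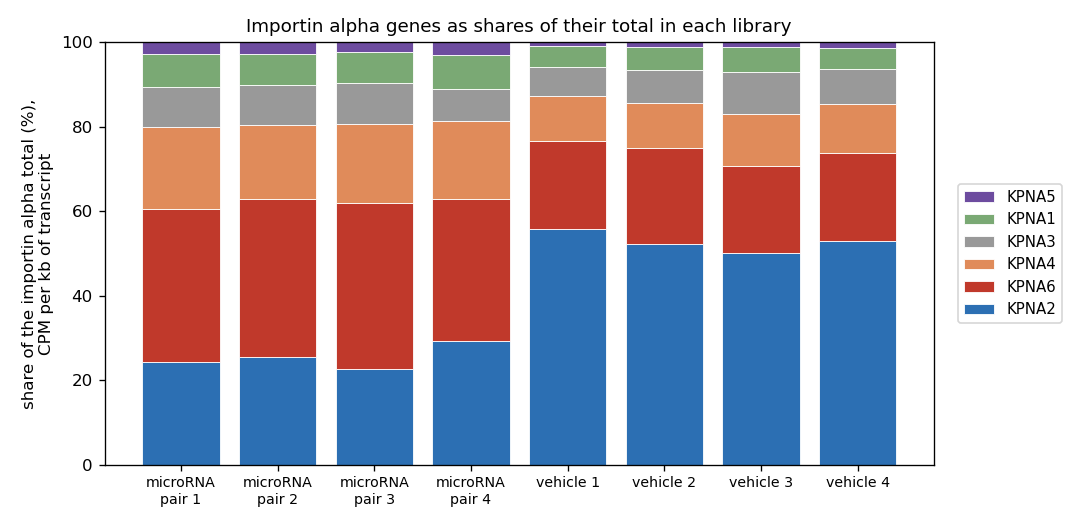
Share (y axis, percent) of each importin alpha gene in the summed CPM per kb of the 6 genes, 1 bar per library, with the microRNA pair libraries on the left and the vehicle libraries on the right. The KPNA2 block is between 22.7% and 29.3% of the bar in microRNA pair libraries and between 50.2% and 55.9% in vehicle libraries.

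The importin beta class binds cargo directly or through an adaptor. Of 11 genes, 8 fell, 1 rose and 2 were not called, with a median log2 fold change of -0.66. KPNB1 (chr17:47649476-47685505), importin beta 1, the partner of importin alpha, was the most abundant receptor gene, with 596, 547, 626 and 563 CPM in the microRNA pair libraries against 1182, 1144, 1204 and 1265 CPM in the vehicle libraries. Both groups were tight and far apart, and the fall was 2.06-fold (log2 fold change -1.04, SE 0.05, adjusted p = 2.54e-25). IPO5, an importer of ribosomal proteins and histones, had 54.7, 45.9, 42.0 and 41.5 CPM with the microRNA pair, against 141, 127, 119.9 and 118 CPM with vehicle. All vehicle libraries were more than 2 times as high as any microRNA pair library, and IPO5 fell most of the class, 2.69-fold (log2 fold change -1.43, SE 0.09, adjusted p = 4.48e-21). IPO11, an importer of a ubiquitin-conjugating enzyme, was scarce, at 6.75, 8.19, 6.89 and 5.79 CPM with the microRNA pair and 19.2, 17.3, 16.4 and 19.3 CPM with vehicle. Its groups were apart, and the fall was 2.55-fold (log2 fold change -1.35, SE 0.19, adjusted p = 1.49e-08). Of IPO11's exon bases, 17.0% overlap LRRC70 on the same strand.

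TNPO3, the importer of SR splicing factors, averaged 83.9 ± 8.14 CPM in microRNA pair libraries and 165 ± 8.43 CPM in vehicle libraries, a log2 fold change of -0.97 (adjusted p = 2.77e-17). TNPO1, which imports hnRNP proteins, averaged 264 ± 10.1 CPM in microRNA pair libraries and 427 ± 22.5 CPM in vehicle libraries, a log2 fold change of -0.70 (adjusted p = 2.23e-16). TNPO2, the close relative of TNPO1, was not called, with 135 ± 10.6 CPM in microRNA pair libraries and 130.0 ± 8.46 CPM in vehicle libraries (SD, n = 4 each; 95% interval of the log2 fold change -0.10 to 0.19). The interval for TNPO1 was -0.81 to -0.58; the difference between the relatives was not itself tested. IPO4 fell by 0.66 on the log2 scale, but 69.3% of its exon bases are also annotated to AL136295.4 on the same strand, so its reads are uncertain. IPO9, an importer of core histones, was called lower with a small difference (log2 fold change -0.15, adjusted p = 0.0273). The IPO9 call was lost without microRNA pair library 1, 2 or 4 (adjusted p = 0.0505, 0.0503 and 0.0679), and without vehicle library 1 or 3 (0.0904 and 0.0601). It was also lost with DESeq2 (0.0683), library size alone (0.906), upper-quartile scaling (0.144) and no filter on low counts (0.0930). IPO13, which works in both directions, was scarce and not called (95% interval -0.38 to 0.49).

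IPO7 and IPO8 are close relatives and moved in opposite directions. IPO7 averaged 210.2 ± 15.6 CPM in microRNA pair libraries and 286 ± 14.3 CPM in vehicle libraries, a fall of log2 fold change -0.44 (adjusted p = 7.82e-09). IPO8 was at 56.6, 60.7, 71.6 and 74.4 CPM in the microRNA pair libraries, against 36.0, 30.0, 37.5 and 36.4 CPM in the vehicle libraries. Every microRNA pair library was above every vehicle library in IPO8, and the rise was 1.86-fold (log2 fold change 0.89, SE 0.11, adjusted p = 1.56e-10). Per kb of transcript, the class summed to 249.6 ± 10.8 CPM with the microRNA pair and 410.1 ± 13.0 CPM with vehicle; IPO8 made up 4.95 ± 0.595% of this with the microRNA pair and 1.60 ± 0.118% with vehicle, and KPNB1 made up 38.0 ± 0.804% with the microRNA pair and 47.6 ± 0.733% with vehicle.

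Exportins carry cargo out with RanGTP. Of 7 genes, 6 fell and 1 rose, with a median log2 fold change of -0.72. CSE1L (chr20:49046246-49096960), the exportin that returns importin alpha to the cytoplasm, had 110.4, 106, 91.9 and 99.1 CPM in the microRNA pair libraries and 291, 268, 282 and 316 CPM in the vehicle libraries. Each vehicle library had more than 2 times the level of any microRNA pair library. The fall of 2.81-fold was the largest of all receptor genes and had the smallest adjusted p of the 51 tested (log2 fold change -1.49, SE 0.07, adjusted p = 1.17e-27). XPO1, or CRM1, the exporter of proteins with leucine-rich signals, was at 97.8, 94.5, 90.2 and 90.1 CPM with the microRNA pair, against 176, 155, 169 and 175 CPM with vehicle. The groups did not overlap, and the fall was 1.80-fold (log2 fold change -0.85, SE 0.07, adjusted p = 9.91e-16). XPO5, which exports microRNA precursors, averaged 40.6 ± 3.53 CPM in microRNA pair libraries and 67.0 ± 3.09 CPM in vehicle libraries and fell by a log2 fold change of -0.72 (adjusted p = 5.92e-09). XPO6, the exporter of actin, and XPO7 fell by 0.59 and 0.39 on the log2 scale, both without overlap. XPO4 was the scarcest receptor, called lower with overlapping groups (log2 fold change -0.73, adjusted p = 0.0196). The XPO4 call was lost without microRNA pair library 3 or 4 (adjusted p = 0.0520 and 0.0531) and without vehicle library 3 (0.130), with DESeq2 (0.0704) and with library size alone (0.0584).

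XPOT (chr12:64404350-64451127), the exporter of transfer RNA, went against the rest of its class, with 91.1, 73.2, 78.5 and 96.9 CPM in the microRNA pair libraries and 42.3, 34.7, 44.9 and 45.5 CPM in the vehicle libraries. The lowest microRNA pair library was well above the highest vehicle library. XPOT rose 2.02-fold (log2 fold change 1.01, SE 0.10, adjusted p = 4.42e-13), the 1 rise of at least 2-fold among the 51 tested. Per kb of transcript, exportins summed to 102 ± 4.46 CPM with the microRNA pair and 181 ± 8.53 CPM with vehicle. XPOT made up 12.9 ± 1.49% of the sum with the microRNA pair and 3.60 ± 0.299% with vehicle, and CSE1L made up 28.0 ± 1.45% with the microRNA pair and 45.0 ± 1.40% with vehicle.

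Levels per kb of transcript ranked the members as follows. The length was that of the transcript with the longest coding sequence, and another transcript of a gene could change its place. For NUP93 this length was 2834 bases, although its longest annotated 3′ UTR alone has 5677 bases. KPNB1 was highest in both groups, at 94.9 ± 5.74 CPM per kb with the microRNA pair and 195 ± 8.27 CPM per kb with vehicle (SD, n = 4 each). In vehicle libraries KPNA2 (82.2 ± 6.41) and CSE1L (81.4 ± 5.62) came next and did not differ beyond their spread, followed by TPR (63.4 ± 4.19) and RAE1 (61.4 ± 5.23), which did not differ beyond theirs. In microRNA pair libraries the next were TPR (56.9 ± 2.41), KPNA6 (47.7 ± 4.39) and NUP93 (42.0 ± 2.27). IPO7 (34.0 ± 2.53), KPNA2 (33.1 ± 3.13) and RAE1 (32.6 ± 1.89) followed and did not differ beyond their spread, ahead of CSE1L (28.7 ± 2.30). Of the 51 tested, XPO4 was lowest in both groups, at 0.423 ± 0.138 CPM per kb with the microRNA pair and 0.739 ± 0.185 with vehicle. NUP210 was next with the microRNA pair, at 0.471 ± 0.0499, against 2.96 ± 0.233 with vehicle, where KPNA5 (1.78 ± 0.193) and IPO13 (2.36 ± 0.826) lay between XPO4 and NUP210. Replicates were mostly close: the coefficient of variation over 4 libraries had a median of 9.45% in microRNA pair libraries and 7.87% in vehicle libraries among the 51 tested. The highest values were 32.6% in microRNA pair libraries (XPO4) and 35.0% in vehicle libraries (IPO13). In microRNA pair libraries NUP54 (30.5%) and NUP98 (29.6%) also varied widely.

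**Figure D4:**
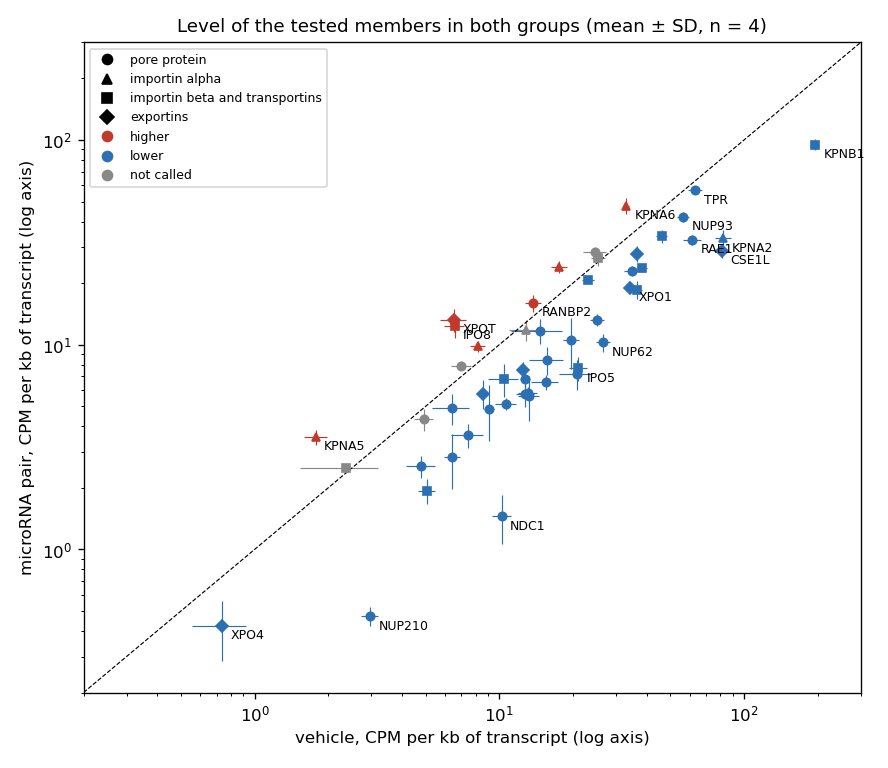
Level of the 51 tested genes in CPM per kb of transcript, mean ± SD of 4 libraries, with the microRNA pair on the y axis and vehicle on the x axis (both log); the dashed line marks equal levels, and shape and colour give class and call. Most points lie below the line, with NDC1 and NUP210 farthest from it, and XPOT, IPO8 and KPNA5 lie above it.

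Words matching the seeds were counted over the 50 tested genes with a 3′ UTR of at least 50 bases (AAAS was the exception). The miR-449a word was in 9 of 50 (18.0%), against 17.9% of the 10521 tested genes of the whole table with such a 3′ UTR. All 9 were called lower, with a median log2 fold change of -0.93, but the calls of IPO9 and XPO4 are among those lost under several settings, as given above. Among all 1879 genes with the word, 769 were lower and 531 higher, with a median of -0.13. The 9 were NUP210 with 2 copies, SEH1L, IPO11, NUP43, NUP188, RAE1, XPO5, XPO4 and IPO9. The miR-340-5p word was in 16 of 50 (32.0%), against 19.9% of all tested genes; 11 of these fell and 4 rose, with a median of -0.42, where the 2095 genes of the whole table with the word had 715 lower, 739 higher and a median of 0.04. NDC1, the gene that fell most, and KPNA5, among the genes that rose most, both hold 2 copies of it, and XPOT, KPNA4 and RANBP2, which rose, hold 1 copy each. Of the 27 members with neither word, 19 fell and 3 rose, with a median of -0.70, against 2243 lower, 2555 higher and a median of 0.05 among the 7011 such genes of the whole table. KPNA2, KPNB1 and XPO1 are among the members with neither word. Members had somewhat longer 3′ UTRs, with a median of 1758 bases against 1468 for all tested genes. With the 3′ UTR of the transcript with the longest coding sequence, the miR-449a word was in 6 of 48 members (12.5%), against 15.4% of all tested genes, and the miR-340-5p word in 15 of 48 (31.25%), against 17.4%. All 6 members with the miR-449a word fell, with a median log2 fold change of -0.83. Of the 29 members with neither word in that 3′ UTR, 21 fell and 3 rose, with a median of -0.85. The median with the miR-340-5p word was -0.40.

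**Figure D5:**
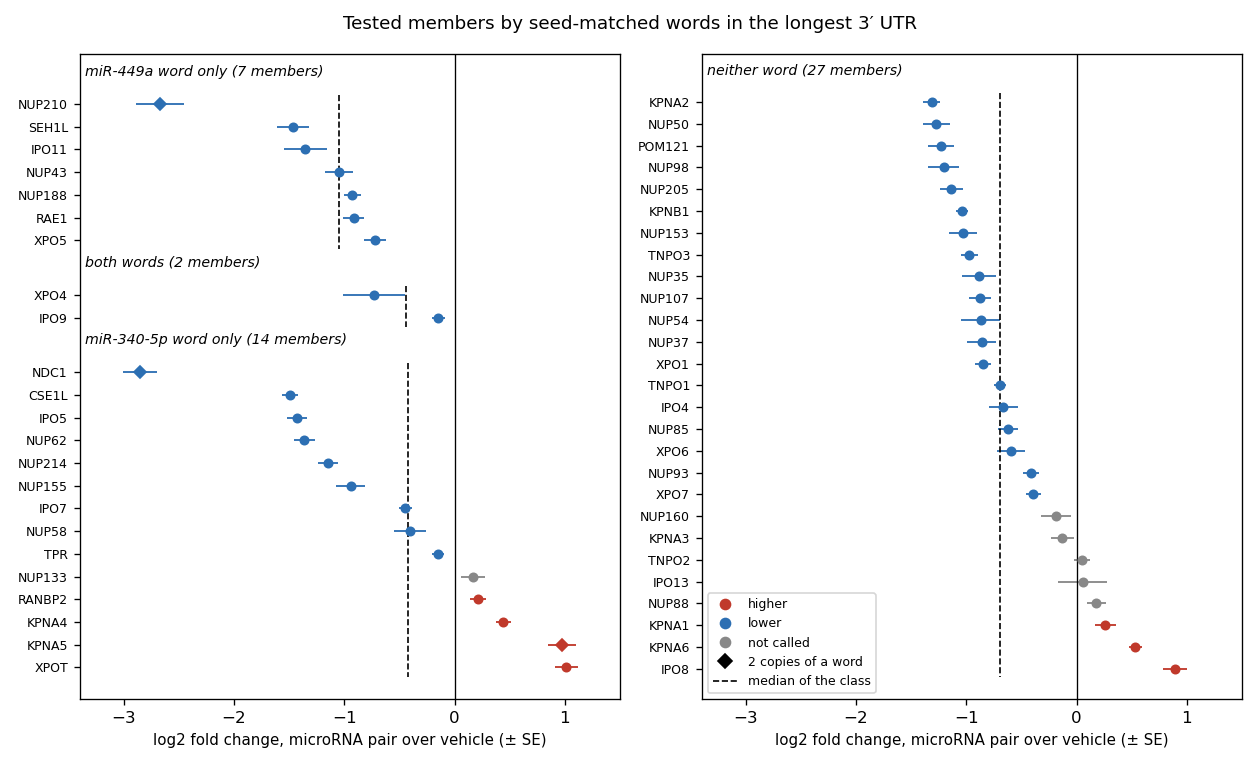
Log2 fold change (x axis, microRNA pair over vehicle, with its SE) of the 50 tested genes with a 3′ UTR of at least 50 bases, grouped by which seed-matched word the longest 3′ UTR holds; diamonds mark 2 copies of a word and dashed lines the class medians. Genes with the miR-449a word are all to the left of 0, and genes with the miR-340-5p word range from NDC1 at -2.85 to XPOT at 1.01.

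Genes that work with the pore but lie outside the rule were read from lists chosen by function. The Ran cycle gives transport its direction. Of its 10 genes, 9 fell (90.0%, against 34.0% of all tested genes) and none rose (against 33.4%), with a median log2 fold change of -0.89. RAN itself was at 574 ± 25.5 CPM in microRNA pair libraries and 710.3 ± 24.0 CPM in vehicle libraries (SD, n = 4 each; log2 fold change -0.31). RCC1, the nuclear exchange factor that loads Ran with GTP, was at 21.0 ± 4.05 CPM in microRNA pair libraries and 68.5 ± 5.87 CPM in vehicle libraries, a 3.20-fold fall (adjusted p = 3.14e-19). RANGAP1, which makes Ran hydrolyse its GTP, fell by a log2 fold change of -0.75, RANBP1, its cofactor, by -1.33 (adjusted p = 8.56e-28), and RCC2, a relative of RCC1, by -1.24. Another list of 11 tested genes held pore and carrier genes outside the rule. It also held SENP1, SENP2, TOR1A and TOR1AIP1, which encode neither pore proteins nor receptors. Of the 11, 6 fell and 2 rose (54.5% and 18.2%, against 34.0% and 33.4% of all tested genes). SENP1, SENP2 and TOR1A were among the falls. POM121C and SENP1, a SUMO protease docked at the pore, fell by log2 fold changes of -1.10 and -1.50. SEC13, a Y complex subunit shared with the COPII coat, fell by 0.50 on the log2 scale. GLE1, the mRNA export factor of the cytoplasmic face, rose by 0.81 (adjusted p = 6.79e-15). Of 18 mRNA export genes, 9 fell (against 34.0% of all tested genes) and 5 rose (27.8%, against 33.4%), with a median of -0.32. Among these, the helicase DDX39A fell by 1.39, NXT1, the partner of the mRNA export receptor NXF1, by 0.78 and ENY2 by 0.44 on the log2 scale, while THOC5 and NXF1 rose by 0.58 and 0.66.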

How the data were processed

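The deposited table gives raw counts of reads for each gene symbol and library. HTSeq 0.5.3p3, TopHat2 2.0.13 and DESeq2 are named, with the build GRCh38 and SAMtools 0.1.19.24, per the submitters' processing notes; which annotation and strand setting the authors counted with is not given in the sources used here. Per the labels, libraries came from a stranded mRNA kit. Totals of 2567737 to 5569342 counts limit precision mainly for genes of a few CPM.

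Genes were kept with edgeR's filterByExpr (a count of 10, a total of 15); the 12366 genes kept hold 99.5% of reads. After TMM scaling they were tested, two-sided, with edgeR 4.0.16 in R 4.3.3 (glmQLFit, robust; group as the only term), with Benjamini-Hochberg adjustment over all tested genes. The biological coefficient of variation was 0.0745. The SE is the size of the log2 fold change divided by the root of the F statistic. Replicate pairs differed by more than sampling noise (chi-square per gene 2.21 to 5.89). GENCODE 29 gave coordinates, 3′ UTRs and transcript lengths. The script was tested on simulated data.

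Members and lists were chosen with earlier results of these data known. Named in full were members changed at least 2-fold, the largest rise and fall of each class, and XPO1, KPNB1, KPNA2, RANBP2, TPR, NUP98 and NUP62. Alternatives were DESeq2 1.42.0, limma-voom (limma 3.58.1), other scalings, filters and thresholds, a replicate block, leaving out each library, shares without length and another 3′ UTR. Some items are not reported here.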

Additional observations from a re-analysis of the deposited data

Results flagged for a closer look

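In 6 of the 102 sets of 4 values (51 genes in 2 groups), 1 library lay apart from the other 3, with a gap over the set's range above Dixon's 95% critical value for 4 samples; chance gives about 1 in 20 such sets. MicroRNA pair library 4 was apart in 4 genes: KPNA2, at 92.7 CPM where the others had 76.4 to 78.5 CPM (ratio 0.875); NUP155, at 24.5 CPM against 19.0 to 19.8 CPM (0.855); NUP214, at 39.9 CPM against 45.4 to 46.2 CPM (0.876); and NUP58, at 26.7 CPM against 19.0 to 19.6 CPM (0.918). Vehicle library 3 was apart in KPNA1, at 62.0 CPM against 53.3 to 54.4 CPM (0.870), and in NUP54, at 22.9 CPM against 20.9 to 21.1 CPM (0.908). Without microRNA pair library 4, KPNA2, NUP155, NUP214 and NUP58 kept their calls, and without vehicle library 3 KPNA1 and NUP54 kept theirs.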

How the results depend on the processing

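Under every alternative tried, the number of members called lower stayed between 31 and 38 and the number called higher between 6 and 10, except that only 3 were called higher when a change of at least 1.5-fold was also asked. Of the 51 tested members, 36 kept the same call under every setting (3 higher, 30 lower and 3 not called), and no log2 fold change of the 22 members named in full changed sign. Leaving out 1 library at a time gave 7 to 8 members higher and 34 to 38 lower. The calls that moved beyond the fold and threshold settings were those of AAAS, IPO9, NUP58, TPR and XPO4, each lost under some settings, and of NUP133, NUP88 and TNPO2, each called higher with library size alone; the cause was not tested. Library size alone moves the median of all tested genes by 0.138 on the log2 scale.

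The numbers were not taken as pairs, since no label says that a number marks a shared culture or day. Same-numbered libraries of the 2 groups deviated together only weakly (correlations 0.0135 to 0.0555). Yet each microRNA pair library correlated best with the vehicle library of its own number, so these values do not settle whether the numbers are pairs. With the replicate number as a replicate block, 8 members were called higher and 38 lower, and 4102 and 4171 of all tested genes. The added member was NUP88 (adjusted p = 0.0463 with the replicate block). Genes of a few CPM, such as XPO4 and NUP210, are limited by depth.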
